A study of Homo sapiens with 24 samples.

Results

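The genes described here are the transcription factor NRF2, encoded by NFE2L2, and 8 antioxidant genes known as its targets: HMOX1, FTL, NQO1, GCLC, GCLM, TXNRD1, SRXN1 and OSGIN1. They were taken by symbol from 24 tables of gene expression, and they are 9 of the 48162 rows in each table. SRXN1 had 2 rows, of which the one with the higher mean was used. The study asked by RNA-seq how extracellular vesicles (EV), small membrane particles shed by cells, alter pancreas cells when the vesicles come from pancreatic cancer cells. Values are FPKM, reads scaled by gene length and by library size, so levels can be set side by side between genes.

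The recipients, labelled as normal pancreas cells, were the telomerase-immortalised line hTERT-HPNE (HPNE) and the duct epithelial line HPDE-H6c7 (HPDE), which is also immortalised. Both were kept in keratinocyte serum-free medium with penicillin-streptomycin in 24-well plates and received 1 of 4 treatments for 24 h, with 3 libraries each. The treatments were fresh serum-free medium (untreated), the medium that remained after vesicle isolation (residual medium, labelled as the negative control), vesicles of PANC-1, a pancreatic carcinoma line, and vesicles of PPCL-68, which the labels name without further description. Vesicles were given at 1e10 per well from either source. The labels do not say which culture the residual medium came from. Series text calls the replicates biological triplicates, but the protocols do not say what separated them, and each recipient is a single line, so p-values measure the spread between these libraries.

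NRF2 is held at a low level by KEAP1, which hands it to a CUL3 ubiquitin ligase for degradation. When oxidants or electrophiles modify KEAP1, NRF2 escapes, enters the nucleus, pairs with a small MAF protein (MAFF, MAFG or MAFK) and binds antioxidant response elements near its target genes. Because this control acts on the protein, the NFE2L2 transcript level is not a measure of NRF2 activity, and the targets are the usual readout in RNA. BACH1 is a haem-binding repressor that occupies the same elements, and SQSTM1 (p62) is a selective autophagy receptor that can bind KEAP1.

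RefSeq promoter entries (250 bases before to 50 after a start, build GRCh38.p14) were found for 8 of the 9 genes. The entries were searched on both strands for TGACNNNGC, the core of the antioxidant response element. The following 29-base windows around a match are shown because the match has the letters of the core that NRF2 is described to bind. GCLM and TXNRD1, the genes that hold them, responded differently to the vesicles in HPDE. In HPNE both genes were called higher than in residual medium with PPCL-68 vesicles, and neither was called with PANC-1 vesicles. Whether NRF2 binds at these matches was not tested. Capitals mark the match, and positions count back from -1, the base before the start.
GCLM, chr1:93909446-93909474 (minus strand), bases -44 to -16: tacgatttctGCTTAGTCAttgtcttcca
TXNRD1, first start, chr12:104215670-104215698 (plus strand), bases -109 to -81: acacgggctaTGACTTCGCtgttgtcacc
TXNRD1, second start, chr12:104286920-104286948 (plus strand), bases -112 to -84: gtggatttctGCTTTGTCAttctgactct
In the GCLM window and in that of the second TXNRD1 start, the element reads on the opposite strand, as TGACTAAGC and TGACAAAGC. The first TXNRD1 start holds one more match, TGACGGAGC on the opposite strand, at bases -8 to 1. By the GENCODE annotation, the whole window of the second TXNRD1 start and the end of the GCLM window nearest the start also lie in annotated exons and UTRs of the same gene. The pattern was present in 3 of the 10 member promoters (30%), in 14 of 49 promoters of other pathway genes (28.6%), and in 4687 of 35116 promoters of the table (13.3%). Counted by gene, it was present in 2 of the 8 members with an entry (25%) and in 14 of 34 other pathway genes (41.2%). A match is a description of the letters, and a missing match says only that they do not occur within these 300 bases.

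Reads assigned to genes ranged from 29874928 to 46490312 in HPNE libraries and from 29209142 to 42206773 in HPDE libraries, and the 9 genes together held 0.253 to 0.561% and 0.179 to 0.339% of them. The duct markers EPCAM, KRT19, KRT8, KRT7, CDH1 and SOX9 lay between 12.6 and 1161 FPKM in HPDE, whereas in HPNE none exceeded 6.28 FPKM and 6 of 6 mesenchymal markers lay between 47.3 and 8130 FPKM. EPCAM was at 0 in 4 HPNE libraries. The summed FPKM of the 6 duct markers in HPDE moved with treatment: 2498 to 2731 untreated, 2867 to 3244 in residual medium, 1403 to 1633 with PANC-1 vesicles and 1314 to 1340 with PPCL-68 vesicles. Of these 6, 4 were lower in every vesicle library than in every control library. Groups without overlap were common in both lines, in either direction. Of 12223 genes tested in HPDE, 8172 (PANC-1 vesicles against residual medium) to 8618 (PPCL-68 vesicles against untreated) did not overlap. In HPNE the same comparisons gave 4387 and 6467 of 11503 genes tested, the lowest and highest of vesicles against a control. Residual medium and untreated cells did not overlap for 5836 genes in HPNE and 4878 in HPDE. In HPNE, TERT, the telomerase gene, was at 202 to 443 FPKM in residual medium and at 114 to 200.1 FPKM in the other groups. The part of these shifts in the changes of the members was not tested. Acinar, endocrine, endothelial and immune markers did not exceed 2.07 FPKM in either line. In each HPNE group 1 library stood apart from the other 2 (untreated replicate 3, residual medium replicate 3, PANC-1 EV replicate 1 and PPCL-68 EV replicate 1), at 2.05 to 3.31 times the distance between that pair, against 1.08 to 1.24 times in HPDE. HPNE residual medium replicate 3 lay nearer to the mean of the PANC-1 EV group than to its own pair (root mean square log2 distance 0.360 against 0.453), and the other 23 libraries lay nearest to their own group.

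In HPNE, HMOX1, FTL, NQO1, GCLC and OSGIN1 were lower in residual medium than in fresh medium. NFE2L2, FTL, NQO1, GCLC and OSGIN1 were higher with both kinds of vesicles than in residual medium, and HMOX1, GCLM and TXNRD1 were called higher with PPCL-68 vesicles. In bulk RNA a change in RNA per cell and a change in the share of cells that express a gene cannot be told apart. Against residual medium, PPCL-68 vesicles raised 8 of the 8 members tested in HPNE (limma on log2(FPKM + 1), Benjamini-Hochberg adjusted p under 0.05 over all genes), while 20.3% of all 11503 genes tested were called higher and 19.7% lower. PANC-1 vesicles raised 5 of 8 and lowered 0, against 13.9% of all genes called higher and 10.3% lower. The median log2 difference of the members was 0.76 with PPCL-68 vesicles and 0.61 with PANC-1 vesicles, beside medians of 0.00264 and 0.02 over all genes tested. Residual medium against untreated cells lowered 5 of 8 and raised 0, with 25.2% of all genes called lower, 18.7% higher and a member median of -0.70 (all genes -0.05). The vesicle comparisons share the residual medium libraries with that contrast, so a low residual medium value enters both. Set against untreated cells instead, PANC-1 vesicles raised 1 member (9.61% of all genes higher, 11.5% lower) and PPCL-68 vesicles raised 3 (18.7% higher, 23.8% lower), with 0 lowered by either. Without the 4 libraries that stood apart, PANC-1 vesicles lowered FTL (-0.72, limma adjusted p = 4.98e-06) and NQO1 (-0.25, adjusted p = 0.00769) below untreated cells, and voom on recovered reads lowered FTL (-0.52, adjusted p = 0.0484). PPCL-68 vesicles without those libraries lowered FTL (-0.53, limma adjusted p = 2.75e-05), GCLC (-0.39, adjusted p = 0.004) and OSGIN1 (-0.35, adjusted p = 0.00291). The same refit also added rises over untreated cells. With PANC-1 vesicles these were GCLM (0.72, limma adjusted p = 2.72e-05) and TXNRD1 (0.67, adjusted p = 4.41e-05), and with PPCL-68 vesicles HMOX1 (0.73, adjusted p = 0.0152). With every gene kept, whatever its level, 2 members were called for PANC-1 vesicles and 5 for PPCL-68 vesicles. The PANC-1 count was also 2 without PANC-1 EV replicate 2, without PANC-1 EV replicate 3 or without residual medium replicate 1, and 3 without residual medium replicate 2. It was 8 without the 4 libraries that stood apart, where the PPCL-68 count was 8. Over all genes, that refit gave 6773 PANC-1 calls in place of 2784. Leaving out those 4 keeps the closest pair of each group, which lowers the spread by construction. Calls of that refit, here and below, are therefore not added support. The same holds for calls gained by leaving out only 1 of these 4 libraries.

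In HPDE, both kinds of vesicles raised NFE2L2, FTL, GCLC, TXNRD1 and OSGIN1 above residual medium. PPCL-68 vesicles also raised HMOX1 and NQO1, and PANC-1 vesicles lowered GCLM. PPCL-68 vesicles raised 7 of 8 members above residual medium, with 31.3% of all 12223 genes tested called higher and 36.4% lower, and the member median was 0.69 (all genes -0.03). PANC-1 vesicles raised 5 and lowered 1, with 28.2% of all genes higher and 35.1% lower, and the member median was 0.24 (all genes -0.04). Against untreated cells the counts were 7 raised for PPCL-68 vesicles (30.1% of all genes higher, 36.1% lower) and 6 raised with 1 lowered for PANC-1 vesicles (26.3% higher, 34.4% lower). That PANC-1 count of 7 became 5 or 6 whichever 1 of the 6 libraries was left out. The HMOX1 call in it was lost with every gene kept (limma adjusted p = 0.0845) and with voom (0.0512). GCLC lost its call there with every gene kept (limma adjusted p = 0.0575). Residual medium itself raised 3 members and lowered 1, where 9.93% and 10.1% of all genes were called. That residual medium count of 4 became 2 with every gene kept, without untreated replicate 1 or without residual medium replicate 2. NFE2L2, FTL, GCLC and OSGIN1 were called higher in all 4 comparisons of vesicles with residual medium, and GCLM was the only member called in both directions. Of 36 other pathway genes tested in all 4, 3 were called higher in all 4 and 3 lower. The share over all genes was not computed. Both comparisons of a line share its residual medium libraries. The HPNE calls of GCLC, and of FTL with PANC-1 vesicles, were lost without single libraries, as given below.

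**Figure D1:**
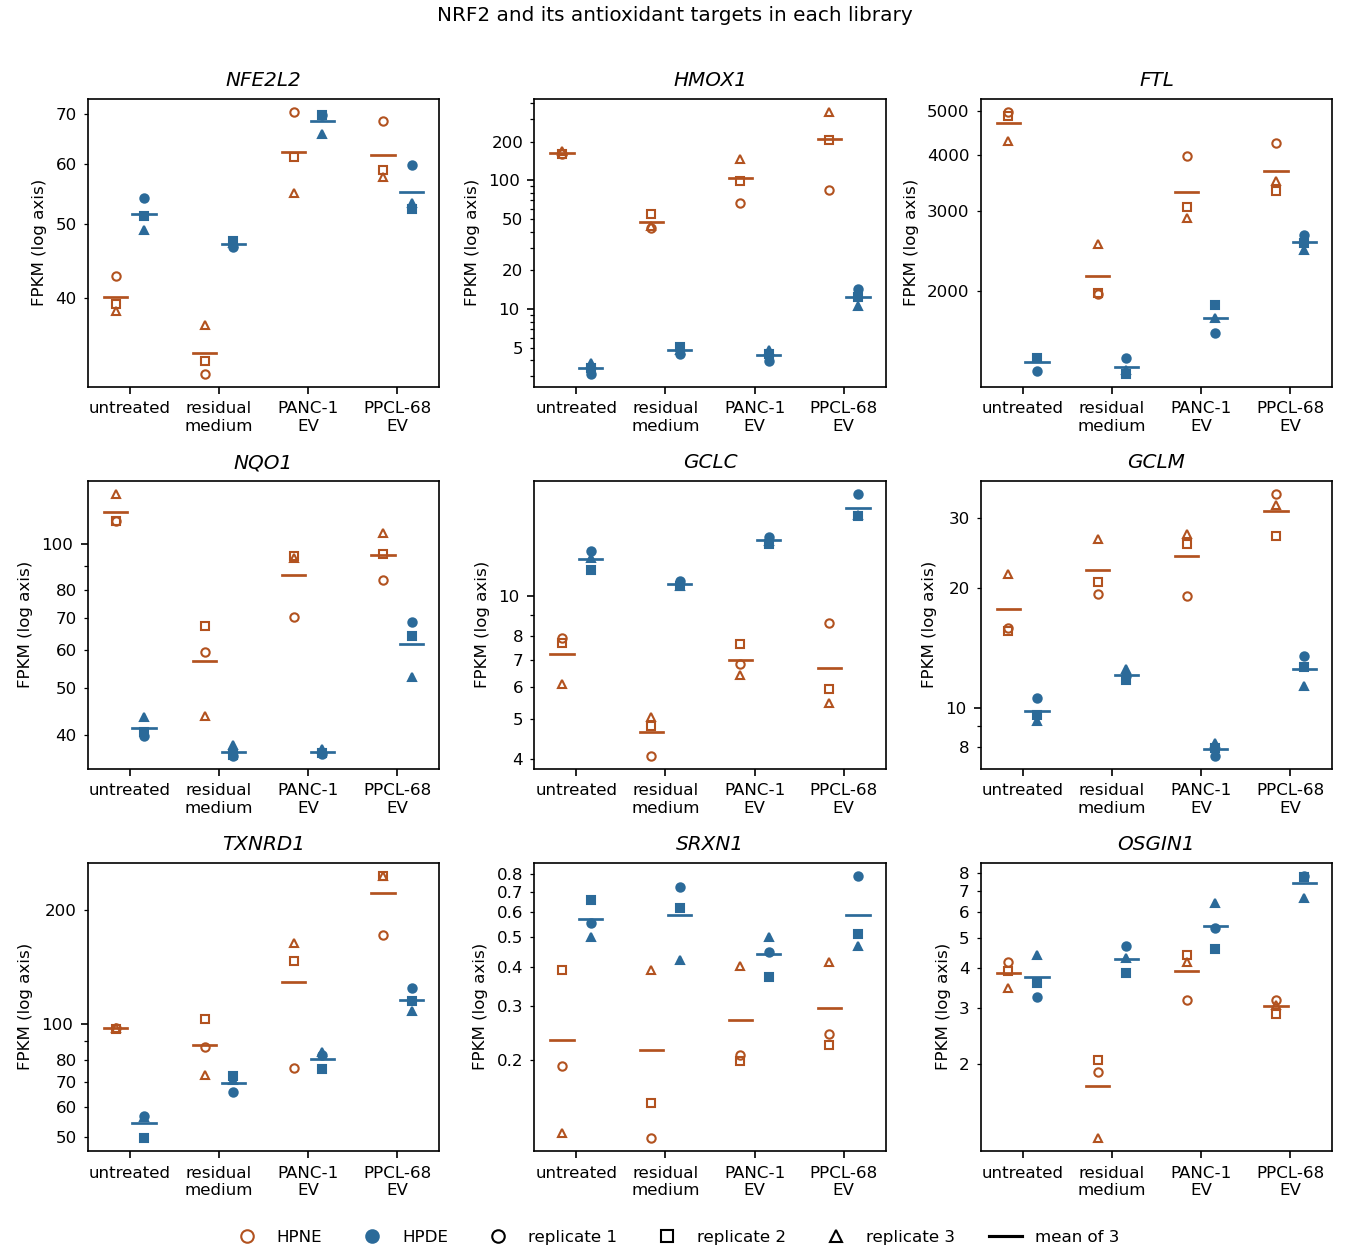
FPKM (log axes with their own ranges) of NRF2 and 8 antioxidant genes in every library, by treatment, for HPNE (open orange) and HPDE (filled blue), with marker shape for replicate and a line at the mean of 3. HMOX1 lies between 42.5 and 342 FPKM in HPNE and between 3.15 and 14.4 FPKM in HPDE, and NFE2L2 is higher in every vesicle library than in every residual medium library of its line.

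NFE2L2 lies on hg19 chromosome 2 from 178092323 to 178257425, on the minus strand. In HPNE its level was 42.7, 39.3 and 38.4 FPKM in untreated cells and 31.8, 33.0 and 36.8 FPKM in residual medium. It was 70.4, 61.4 and 54.96 FPKM with PANC-1 vesicles and 68.4, 59.1 and 57.8 FPKM with PPCL-68 vesicles, so every vesicle library stood above every control library. The rise over residual medium was 0.85 ± 0.11 (log2, SE, n = 3 per group, limma adjusted p = 0.000589) with PANC-1 vesicles and 0.85 (adjusted p = 0.000222) with PPCL-68 vesicles, or 1.84-fold and 1.82-fold in mean FPKM. Over untreated cells it was 0.62 (adjusted p = 0.00304) and 0.61 (adjusted p = 0.00106). The residual medium libraries all lay below the untreated ones, but the difference of -0.24 did not pass the threshold (limma adjusted p = 0.0863). Without residual medium replicate 3 it was -0.30 and did (limma adjusted p = 0.0428), a choice that keeps the closest pair and lowers the spread by construction.

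In HPDE, NFE2L2 stood at 54.3, 51.3 and 49.2 FPKM in untreated cells, 46.6, 47.5 and 47.2 FPKM in residual medium, 69.7, 69.7 and 65.8 FPKM with PANC-1 vesicles, and 59.9, 52.4 and 53.4 FPKM with PPCL-68 vesicles. PANC-1 vesicles gave the top level here, above every PPCL-68 library. The rise over residual medium was 0.53 ± 0.05 (log2, SE, n = 3, limma adjusted p = 8.86e-07) with PANC-1 vesicles and 0.22 ± 0.05 (adjusted p = 0.00181) with PPCL-68 vesicles. Against untreated cells, NFE2L2 with PPCL-68 vesicles overlapped the control range, and the difference of 0.10 did not pass the threshold (limma adjusted p = 0.125, and 0.0469 after median-of-ratios scaling). AGPS, a protein-coding gene on the opposite strand with up to 6049 reads in a library, overlaps only the end of the NFE2L2 row, from 178257372 to 178257425. The library kit kept no strand, so reads of that short stretch cannot be told apart.

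HMOX1 encodes haem oxygenase 1, which opens the haem ring to biliverdin, carbon monoxide and iron (hg19 chromosome 22, 35776354 to 35790207, plus strand). HPNE held 159.6, 159.6 and 168 FPKM untreated and 42.5, 54.9 and 44.4 FPKM in residual medium, a fall of 1.77 on the log2 scale (limma adjusted p = 0.00666) to 0.291 times the untreated mean. PANC-1 vesicles gave 67.0, 99.9 and 147 FPKM, and PPCL-68 vesicles 84.2, 206 and 342 FPKM. All 6 vesicle libraries stood above the residual medium libraries, and replicates of either vesicle group were more spread than those of either control. The rise with PPCL-68 vesicles was 1.93 ± 0.41 (log2, SE, n = 3, limma adjusted p = 0.00426), or 4.46-fold. The difference with PANC-1 vesicles, 1.07 ± 0.41, did not pass the threshold (adjusted p = 0.0786). It passed with only the groups compared in the fit (limma adjusted p = 0.048) and with a replicate block (0.0456). It was 1.31 (adjusted p = 0.000714) without the 4 libraries that stood apart, a choice that lowers the spread by construction. With PANC-1 vesicles every HMOX1 library was still below the untreated ones, and with PPCL-68 vesicles the range enclosed the untreated values; neither difference from untreated cells passed the threshold (limma adjusted p = 0.239 and 0.782).

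In HPDE, HMOX1 was a low-level gene, at 3.15, 3.48 and 3.83 FPKM untreated, and it was 5.19 log2 units lower than in untreated HPNE (limma adjusted p = 4.84e-12). Residual medium held 4.47, 5.06 and 4.83 FPKM and PANC-1 vesicles 3.98, 4.47 and 4.84 FPKM, which overlapped (difference -0.09, 95% interval -0.30 to 0.11, limma adjusted p = 0.415). PPCL-68 vesicles gave 14.4, 12.4 and 10.5 FPKM, with no overlap with any other HPDE group. That rise was 1.21 ± 0.10 (log2, SE, n = 3, limma adjusted p = 5.9e-08) over residual medium, 2.60-fold in mean FPKM, and 1.57 (adjusted p = 3.2e-09) over untreated cells. The direction of the residual medium effect on HMOX1 was thus opposite in the lines: in HPDE it was a rise of 0.37 (limma adjusted p = 0.0167). That HPDE call was lost without untreated replicate 1 (adjusted p = 0.0749), without residual medium replicate 2 (adjusted p = 0.0519) or with every gene kept (adjusted p = 0.0759).

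FTL, the ferritin light chain, forms with the heavy chain FTH1 the shell that stores iron (hg19 chromosome 19, 49468558 to 49470135, plus strand), and it had the highest FPKM of the 9 genes in every library. In HPNE it fell from 4972, 4865 and 4278 FPKM in untreated cells to 1971, 1978 and 2544 FPKM in residual medium (log2 difference -1.13, limma adjusted p = 0.00148). The level was 3972, 3067 and 2901 FPKM with PANC-1 vesicles and 4234, 3322 and 3505 FPKM with PPCL-68 vesicles, between the controls in every library. The rise over residual medium was 0.77 ± 0.19 (log2, SE, n = 3, limma adjusted p = 0.0094) with PPCL-68 vesicles. With PANC-1 vesicles FTL rose by 0.61 (adjusted p = 0.0411). That call was lost without any 1 of the 6 libraries other than residual medium replicate 3 (limma adjusted p = 0.0567 to 0.149). It was also lost with median-of-ratios scaling (0.0564), with a replicate block (0.0507) and with only the groups compared in the fit (0.0878). With every gene kept, the PANC-1, PPCL-68 and residual medium calls of FTL in HPNE were all lost (limma adjusted p = 0.475, 0.279 and 0.0826).

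In HPDE, FTL was close in both controls, at 1336, 1428 and 1424 FPKM untreated and 1429, 1317 and 1341 FPKM in residual medium. It reached 1617, 1869 and 1748 FPKM with PANC-1 vesicles and 2667, 2560.0 and 2461 FPKM with PPCL-68 vesicles, and these groups overlapped neither the controls nor each other. The rises over residual medium were 0.35 (limma adjusted p = 0.000242) and 0.91 (adjusted p = 1.58e-08). FTL and FTH1 both have processed copies in the genome, and how the authors assigned reads shared with them is not given in the sources used here.

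NQO1 reduces quinones to hydroquinones and is a common marker of NRF2 activity (hg19 chromosome 16, 69740899 to 69760854, minus strand). In HPNE its level was 112, 112 and 127 FPKM untreated and 59.6, 67.3 and 43.7 FPKM in residual medium, a fall of 1.05 on the log2 scale (limma adjusted p = 0.000905). It was 70.5, 94.3 and 93.7 FPKM with PANC-1 vesicles and 83.9, 95.4 and 106 FPKM with PPCL-68 vesicles. Every vesicle library therefore lay above residual medium and below untreated cells. The rises over residual medium were 0.60 ± 0.16 (log2, SE, n = 3, limma adjusted p = 0.0228) and 0.75 (adjusted p = 0.00487). The PANC-1 call for NQO1 was lost without PANC-1 EV replicate 2 (adjusted p = 0.0809), PANC-1 EV replicate 3 (0.0746) or residual medium replicate 1 (0.0529), with every gene kept (0.066) and with only the groups compared (0.0797).

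In HPDE, NQO1 separated the vesicle sources. Its level was 39.7, 40.6 and 43.4 FPKM untreated, 36.1, 36.2 and 38.1 FPKM in residual medium and 36.5, 36.7 and 37.3 FPKM with PANC-1 vesicles. PPCL-68 vesicles gave 68.7, 64.4 and 52.8 FPKM, above all other HPDE libraries, a rise of 0.73 ± 0.07 over residual medium (log2, SE, n = 3, limma adjusted p = 5.66e-07). The difference with PANC-1 vesicles was 0.00193, with a 95% interval of -0.15 to 0.16 (limma adjusted p = 0.983). Below untreated cells NQO1 differed by -0.16 in residual medium and by -0.16 with PANC-1 vesicles (limma adjusted p = 0.137 and 0.0733), and both passed with only the groups compared (0.039 and 0.0109).

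GCLC and GCLM are the catalytic and the modifier subunit of glutamate-cysteine ligase, the rate-limiting enzyme of glutathione synthesis, and they did not follow each other. GCLC (hg19 chromosome 6, 53362139 to 53481768, minus strand) was 7.89, 7.68 and 6.11 FPKM in untreated HPNE and 4.07, 4.81 and 5.06 FPKM in residual medium, a fall of 0.54 (log2, limma adjusted p = 0.0145). It was 6.83, 7.66 and 6.402 FPKM with PANC-1 vesicles and 8.62, 5.94 and 5.47 FPKM with PPCL-68 vesicles. Both ranges stood above residual medium and overlapped untreated cells, with rises over residual medium of 0.50 (limma adjusted p = 0.034) and 0.43 (adjusted p = 0.0412). The PANC-1 call for GCLC was lost without any 1 of the 6 libraries other than residual medium replicate 3 (adjusted p = 0.0537 to 0.128). The PPCL-68 call was lost without residual medium replicate 1 (0.143) or 2 (0.079) or PPCL-68 EV replicate 1 (0.138) or 2 (0.054), or with only the groups compared (0.0913), and the fall in residual medium was lost without untreated replicate 1 (0.0598) or 2 (0.0565) or residual medium replicate 1 (0.0606). With every gene kept, the GCLC vesicle calls were lost in HPNE (limma adjusted p = 0.0898 with PANC-1 and 0.102 with PPCL-68 vesicles).

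In HPDE, GCLC was 12.9, 11.6 and 12.4 FPKM untreated, 10.9, 10.6 and 10.6 FPKM in residual medium, 14.02, 13.5 and 13.7 FPKM with PANC-1 vesicles and 17.9, 15.8 and 15.9 FPKM with PPCL-68 vesicles. No pair of these groups overlapped. The rises over residual medium were 0.33 (limma adjusted p = 0.000107) and 0.58 (adjusted p = 3.27e-07). The fall in residual medium, -0.18 (limma adjusted p = 0.0286), was lost without untreated replicate 1 (0.118) or 3 (0.0791) or residual medium replicate 2 (0.0662) or 3 (0.081).

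In residual medium GCLM (hg19 chromosome 1, 94350761 to 94374966, minus strand) was above untreated cells in HPDE (0.28, limma adjusted p = 0.00864) and not past the threshold in HPNE (0.31, adjusted p = 0.156). In HPNE it was 15.9, 15.6 and 21.6 FPKM untreated, 19.3, 20.7 and 26.6 FPKM in residual medium, 19.1, 25.8 and 27.3 FPKM with PANC-1 vesicles and 34.4, 27.0 and 32.2 FPKM with PPCL-68 vesicles. Only the PPCL-68 libraries all stood above the residual medium libraries, by 0.48 ± 0.17 (log2, SE, n = 3, limma adjusted p = 0.043). This GCLM call was lost without residual medium replicate 1 (adjusted p = 0.149) or 2 (0.121), without PPCL-68 EV replicate 1 (0.123) or 3 (0.106), with median-of-ratios scaling (0.0695) and with every gene kept (0.109). Over untreated cells the PPCL-68 rise was 0.79 (limma adjusted p = 0.00357). With PANC-1 vesicles the difference from residual medium was 0.11 (adjusted p = 0.663). It was 0.39 (adjusted p = 0.00163) without the 4 libraries that stood apart, a choice that lowers the spread by construction.

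In HPDE, GCLM was the member that PANC-1 vesicles lowered. It was 10.6, 9.59 and 9.28 FPKM untreated, 12, 11.8 and 12.5 FPKM in residual medium, 7.59, 7.93 and 8.18 FPKM with PANC-1 vesicles and 13.5, 12.6 and 11.4 FPKM with PPCL-68 vesicles. The PANC-1 libraries lay below all other HPDE libraries, by 0.56 ± 0.06 against residual medium (log2 difference -0.56, SE, n = 3, limma adjusted p = 3.58e-06) and by 0.28 against untreated cells (difference -0.28, adjusted p = 0.00161). PPCL-68 vesicles overlapped residual medium (0.04, 95% interval -0.09 to 0.18, limma adjusted p = 0.571) and stood above untreated cells (0.32, adjusted p = 0.000492). Of the genes whose promoter windows are shown above, GCLM fell and TXNRD1 rose with PANC-1 vesicles in HPDE.

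The ratio of GCLC to GCLM in FPKM put the subunit difference on one scale. In HPDE it was 0.886 ± 0.034 (SD, n = 3) in residual medium, 1.26 ± 0.07 untreated, 1.32 ± 0.07 with PPCL-68 vesicles and 1.74 ± 0.10 with PANC-1 vesicles. The PANC-1 libraries, from 1.67 to 1.85, lay above every other HPDE library, and the residual medium libraries, from 0.847 to 0.911, lay below every other one. In HPNE the ratio was 0.424 ± 0.123 untreated, 0.211 ± 0.021 in residual medium, 0.297 ± 0.062 with PANC-1 vesicles and 0.213 ± 0.041 with PPCL-68 vesicles, so that the modifier subunit was the more abundant transcript in every HPNE library. The ratio of FTL to FTH1 also moved, from 7.11 untreated to 2.99 in residual medium and 3.97 and 2.703 with PANC-1 and PPCL-68 vesicles in HPNE. In HPDE the FTL to FTH1 ratio was 10.6 untreated, 14.8 in residual medium, 10.97 with PANC-1 vesicles and 9.47 with PPCL-68 vesicles. With PPCL-68 vesicles in HPDE the log2 rise over residual medium was 1.55 for FTH1 and 0.91 for FTL. These ratios are descriptions and were not tested.

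**Figure D2:**
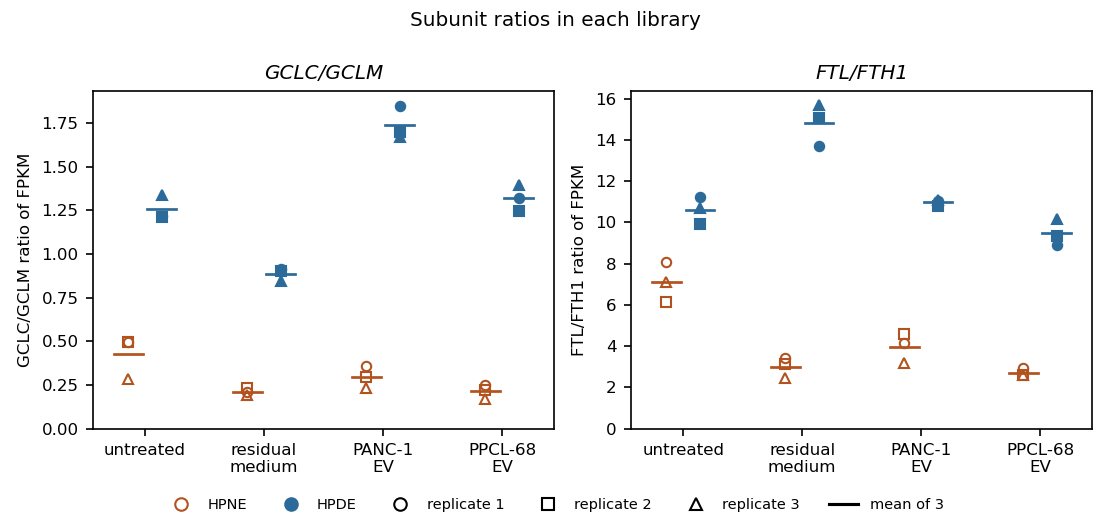
Ratio of FPKM in each library, GCLC to GCLM on the left and FTL to FTH1 on the right, by treatment, for HPNE (open orange) and HPDE (filled blue), with a line at the mean of 3. In HPDE the GCLC to GCLM ratio lies between 1.67 and 1.85 with PANC-1 vesicles and between 0.847 and 0.911 in residual medium.

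TXNRD1 encodes cytosolic thioredoxin reductase, the selenium enzyme that keeps thioredoxin reduced with NADPH (hg19 chromosome 12, 104609557 to 104744061, plus strand). In HPNE it was 97.3, 96.8 and 97.2 FPKM untreated and 86.9, 103 and 73.1 FPKM in residual medium, which overlapped. PPCL-68 vesicles gave 172, 246 and 245 FPKM, above all other HPNE libraries, a rise of 1.32 ± 0.25 over residual medium (log2, SE, n = 3, limma adjusted p = 0.00226) and of 1.16 over untreated cells (adjusted p = 0.00362). PANC-1 vesicles gave 76.3, 146 and 163 FPKM. The first of these libraries, which stood apart over all genes too, lay within the residual medium range, and the difference of 0.49 did not pass the threshold (limma adjusted p = 0.168). Without PANC-1 EV replicate 1 it was 0.82 (limma adjusted p = 0.0112), a choice that keeps the closest pair and lowers the spread by construction.

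In HPDE, the TXNRD1 groups followed each other without overlap: 57.0, 49.9 and 56.7 FPKM untreated, 65.7, 72.8 and 70.7 FPKM in residual medium, 82.4, 75.8 and 83.9 FPKM with PANC-1 vesicles and 124, 114 and 108 FPKM with PPCL-68 vesicles. The rises over residual medium were 0.21 (limma adjusted p = 0.0115, and 0.0541 without residual medium replicate 1) and 0.72 (adjusted p = 1.93e-07). Residual medium stood 0.35 above untreated cells (limma adjusted p = 0.002), so the PPCL-68 rise over untreated cells was larger, at 1.07 (adjusted p = 2.65e-09).

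SRXN1, sulfiredoxin, restores over-oxidised peroxiredoxins. Its row (ENSG00000271303, hg19 chromosome 20, 627259 to 634014, minus strand) held 12 to 76 reads per library. Its FPKM lay between 0.112 and 0.415 across the HPNE libraries, whereas HPDE ranged up to 0.787 from a lowest value of 0.371, and the treatment groups overlapped in either line. The values are below the level of 1 FPKM required for a test. The second SRXN1 row (ENSG00000234516, 627270 to 629157) lies within the first and held 0 reads in all 24 libraries, and a further protein-coding row, ENSG00000270299 (627270 to 656444), covers the same bases with at most 7 reads. Reads that fit several rows can be discarded in counting, and the counting settings are not given in the sources used here, so the SRXN1 values are not a measure of the gene's level.

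OSGIN1, a growth inhibitor induced by oxidative stress, was expressed at a low level (hg19 chromosome 16, 83981887 to 83999937, plus strand). In HPNE it was 4.20, 3.92 and 3.47 FPKM untreated, 1.88, 2.06 and 1.17 FPKM in residual medium, 3.17, 4.39 and 4.20 FPKM with PANC-1 vesicles and 3.18, 2.87 and 3.06 FPKM with PPCL-68 vesicles. The residual medium libraries lay below all others, a fall of 0.86 from untreated cells (log2, limma adjusted p = 0.00113). OSGIN1 rose over residual medium by 0.87 ± 0.14 (log2, SE, n = 3, limma adjusted p = 0.00209) with PANC-1 vesicles and by 0.59 (adjusted p = 0.00699) with PPCL-68 vesicles. In HPDE it was 3.26, 3.597 and 4.39 FPKM untreated, 4.69, 3.85 and 4.30 FPKM in residual medium, 5.36, 4.59 and 6.401 FPKM with PANC-1 vesicles and 7.82, 7.74 and 6.67 FPKM with PPCL-68 vesicles. The PPCL-68 libraries stood above all others (0.67 over residual medium, limma adjusted p = 6.41e-05). The PANC-1 libraries overlapped residual medium, and their rise of 0.28 (limma adjusted p = 0.0325) was lost without PANC-1 EV replicate 1 (0.0603) or 3 (0.167), without residual medium replicate 2 (0.122) or 3 (0.0623), and with every gene kept (0.117).

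**Figure D3:**
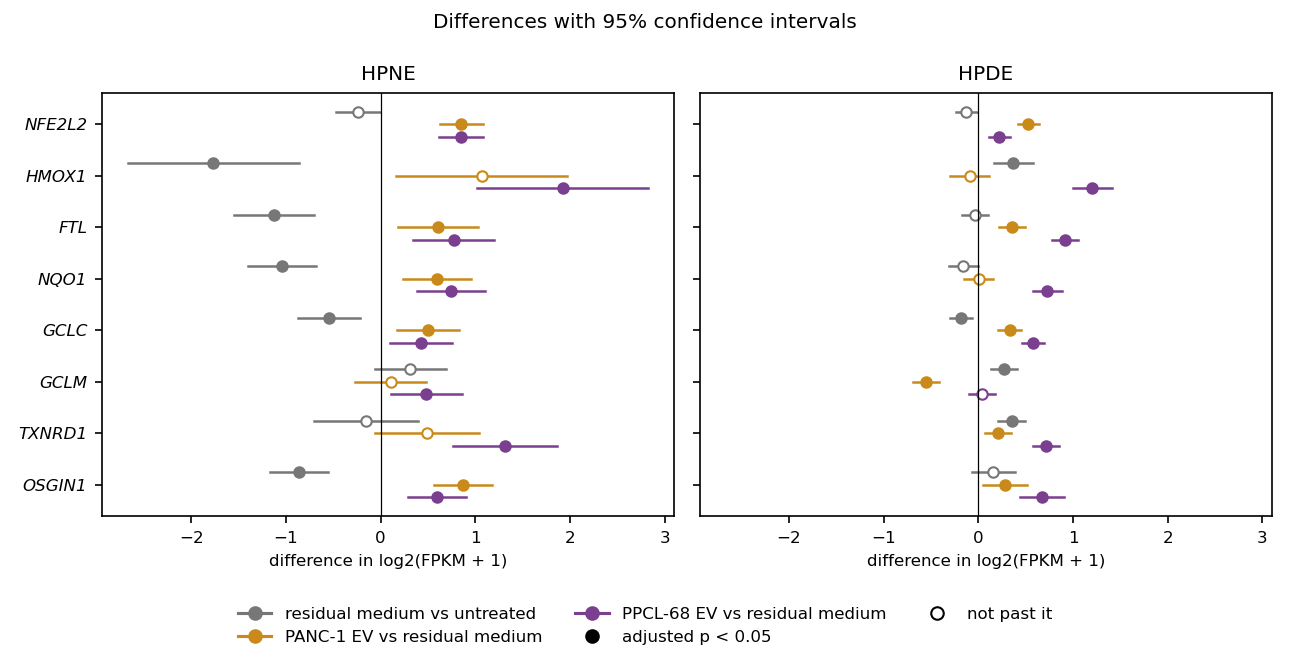
Difference in log2(FPKM + 1) with its 95% confidence interval for the 8 members tested, in HPNE (left) and HPDE (right): residual medium minus untreated (grey), PANC-1 EV minus residual medium (ochre) and PPCL-68 EV minus residual medium (purple), filled where the adjusted p is under 0.05. In HPNE the grey and coloured points of HMOX1, FTL, NQO1, GCLC and OSGIN1 lie on opposite sides of 0, and in HPDE GCLM with PANC-1 vesicles lies at -0.56.

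The plot of differences with intervals also shows that intervals were wider in HPNE, where replicates varied more. A direct test asked whether the vesicle effect over residual medium differed between the lines (HPDE minus HPNE, 1 fit of 24 libraries over 10483 genes). With PANC-1 vesicles it differed for GCLM (-0.67, limma adjusted p = 0.0187), NQO1 (-0.60, adjusted p = 0.0305) and OSGIN1 (-0.59, adjusted p = 0.0315), 3 of 8 members beside 18.2% of all genes. The GCLM call was lost without HPNE residual medium replicate 1 (adjusted p = 0.0548). The NQO1 call was lost without HPNE PANC-1 EV replicate 2 or 3, HPDE residual medium replicate 1 or 3, or any of the 3 HPDE PANC-1 EV libraries (adjusted p = 0.0519 to 0.0768). OSGIN1 lost its call without HPNE PANC-1 EV replicate 2 or 3, HPNE residual medium replicate 3, HPDE residual medium replicate 1 or 3, or HPDE PANC-1 EV replicate 1 or 2 (adjusted p = 0.0527 to 0.0879). The NQO1 and OSGIN1 calls were also lost with every gene kept (limma adjusted p = 0.0672 and 0.0658) and with only the groups compared (0.074 and 0.0877), where HMOX1 passed (-1.16, adjusted p = 0.0274).

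With PPCL-68 vesicles the effect differed between the lines for NFE2L2 (-0.62, limma adjusted p = 0.000813), whose rise was larger in HPNE, 1 of 8 members beside 23.0% of all genes. HMOX1 (-0.72, adjusted p = 0.261) and TXNRD1 (-0.60, adjusted p = 0.119) did not pass. Both did without HPNE PPCL-68 EV replicate 1, which stood apart (limma, HMOX1 -1.27, adjusted p = 0.00567, and TXNRD1 -0.77, adjusted p = 0.0487). GCLM did without HPNE residual medium replicate 3, which stood apart too (-0.57, limma adjusted p = 0.0204). Each of these choices keeps the closest pair of a group, which lowers the spread by construction. The effect of residual medium over untreated cells differed for HMOX1 (2.14, limma adjusted p = 0.0014), FTL (1.09, adjusted p = 0.000257), OSGIN1 (1.02, adjusted p = 0.000462) and NQO1 (0.89, adjusted p = 0.00148), 4 of 8 members beside 38.1% of all genes. TXNRD1 passed as well with only the groups compared (0.51, limma adjusted p = 0.0256). This fit takes 1 spread for both lines although the HPNE replicates were more spread.

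Before treatment, the lines differed in 7 of the 8 members tested, beside 81.5% of all genes. HPDE was lower in HMOX1 (-5.19), FTL (-1.75, limma adjusted p = 1.34e-10), NQO1 (-1.48, adjusted p = 1.96e-09), TXNRD1 (-0.82, adjusted p = 0.000547) and GCLM (-0.77, adjusted p = 2.18e-05), and higher in GCLC (0.70, adjusted p = 1.06e-05). NFE2L2 was 0.35 higher in HPDE (limma adjusted p = 0.000653), close to the median of 0.34 over all genes. After median-of-ratios scaling that median was 0.03 and NFE2L2 differed by -0.00375 (adjusted p = 0.969). OSGIN1 did not differ past the threshold (-0.04, 95% interval -0.31 to 0.23, limma adjusted p = 0.793), but it did with that scaling (-0.33, adjusted p = 0.0251).

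The vesicle sources were given at the same dose and time and were compared directly. In HPDE all 8 members tested differed, beside 50.1% of all genes. NFE2L2 was higher with PANC-1 vesicles (0.31, limma adjusted p = 0.000268), and the other 7 were higher with PPCL-68 vesicles, led by HMOX1 (-1.30, adjusted p = 1.17e-07), NQO1 (-0.73, adjusted p = 1.9e-06) and GCLM (-0.60, adjusted p = 3.69e-06). NFE2L2 and the 7 targets tested ranked the sources in opposite order. In HPNE, 0 of 8 differed by limma after adjustment (5.47% of all genes), 1 of 8 had an unadjusted p under 0.05 (TXNRD1, -0.83, adjusted p = 0.0762), and voom on recovered reads also called 0. Same-numbered libraries of these vesicle groups deviated together over all genes. A fit of these 6 libraries paired by number, chosen after seeing the data, called TXNRD1 (-0.83, limma adjusted p = 0.0128) and HMOX1 (-0.86, adjusted p = 0.0255), both higher with PPCL-68 vesicles, and 1875 of 11358 genes in all. Without HPNE PPCL-68 EV replicate 1, TXNRD1 (-1.001, limma adjusted p = 0.0487) and HMOX1 (-1.41, adjusted p = 0.0212) passed. That library stood apart, and leaving it out keeps the closest pair, which lowers the spread by construction.

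Among 48 other genes of the pathway, listed from general knowledge, 39 could be tested in each line. Against residual medium, PANC-1 vesicles raised 8 and lowered 4 of them in HPNE (13.9% and 10.3% of all genes), and PPCL-68 vesicles raised 13 and lowered 6 (20.3% and 19.7%). In HPDE the balance was the other way, with 11 raised and 21 lowered by PANC-1 vesicles (28.2% and 35.1% of all genes) and 11 raised and 19 lowered by PPCL-68 vesicles (31.3% and 36.4%), so that the number raised was near the share of all genes. With PANC-1 vesicles their median log2 difference was 0.17 in HPNE and -0.19 in HPDE; with PPCL-68 vesicles it was 0.20 and -0.11. Of 36 tested in all 4 comparisons, SLC7A11, SQSTM1 and MAFG rose in all 4, and PRDX1, CBR1 and CBR3 fell in all 4. The share of all genes that did so was not computed. Without the 4 HPNE libraries that stood apart, 28 of the pathway genes were called for PANC-1 vesicles in HPNE, in place of 12. Calls over all genes also went up in that refit, from 2784 to 6773.

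SLC7A11, the cystine carrier that supplies cysteine for glutathione, had the largest rise of the pathway genes tested in each comparison of vesicles with residual medium. In HPNE its mean was 4.24 FPKM in residual medium, 25.3 with PANC-1 vesicles and 31.5 with PPCL-68 vesicles (log2 rises 2.33 and 2.69, limma adjusted p = 0.000881 and 0.000159). In HPDE SLC7A11 went from 5.75 FPKM to 29.7 and 33.9 FPKM (2.18 and 2.37, adjusted p = 1.5e-11 and 4.82e-12). Residual medium lowered it below untreated cells in HPNE (-1.52, limma adjusted p = 0.00392) and in HPDE (-0.71, adjusted p = 1.25e-05). Over untreated cells the SLC7A11 difference with PANC-1 and PPCL-68 vesicles was thus smaller, at 0.81 (limma adjusted p = 0.0897) and 1.16 (adjusted p = 0.0126) in HPNE, where MAFF, a small MAF partner, rose by 2.13 and 2.74. In HPDE it was 1.48 and 1.67, where SQSTM1 rose by 2.41 over untreated cells with PPCL-68 vesicles.

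Of the regulators, SQSTM1 rose with PANC-1 vesicles by 1.08 (HPNE) and 1.40 (HPDE) and with PPCL-68 vesicles by 1.62 (HPNE) and 2.34 (HPDE; limma adjusted p between 7.33e-13 and 0.0002). KEAP1 fell in HPDE with both (-0.53 and -0.40, limma adjusted p = 7.87e-06 and 8.93e-05) and in HPNE differed by 0.09 (adjusted p = 0.461) and 0.25 (adjusted p = 0.0353). This difference between the lines passed the threshold for each source (KEAP1 -0.61, adjusted p = 0.000603, and -0.64, adjusted p = 0.000244). BACH1, the repressor, rose with PANC-1 vesicles in both lines (0.53, adjusted p = 0.0186, and 0.83, adjusted p = 1.75e-08) and with PPCL-68 vesicles in HPDE (0.21, adjusted p = 0.00494). MAFG, a partner of NRF2 on DNA, rose by 1.02 and 1.42 in HPNE, and CUL3, the scaffold of the ligase, fell by 0.82 in HPDE with PANC-1 vesicles (limma adjusted p = 3.93e-09).

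FTH1, the partner of FTL, rose in HPDE with both sources (0.78, limma adjusted p = 5.43e-06, and 1.55, adjusted p = 3e-09) and in HPNE with PPCL-68 vesicles (0.91, adjusted p = 0.00848). Some other genes of the pathway list fell, and the following are named for the size of the fall. The rest of the list rose, fell less or was not called, as counted above. PRDX1, an abundant peroxiredoxin, fell by 0.93 with PANC-1 vesicles in HPDE (limma adjusted p = 8.24e-10) and by 0.65 in HPNE (adjusted p = 0.0122). GPX2, a glutathione peroxidase of epithelia, fell from 14.4 FPKM in residual medium to 5.89 with PANC-1 and 3.08 with PPCL-68 vesicles in HPDE (limma adjusted p = 2.22e-08 and 7.68e-11). CBR1 and PIR fell by 1.15 and 1.02 with PPCL-68 vesicles in HPDE (limma adjusted p = 1.44e-10 and 7.92e-09), and CBR3, a carbonyl reductase like CBR1, fell by 1.303 in HPNE (adjusted p = 0.000308).

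Residual medium itself moved other pathway genes. In HPNE, EPHX1, an epoxide hydrolase, had the largest fall of the pathway genes tested against untreated cells (-1.95, limma adjusted p = 3.72e-06), from a mean of 54.2 to 13.2 FPKM, and TKT, a transketolase, fell by 1.16 (adjusted p = 3.64e-05). The small MAF genes MAFF and MAFK rose there by 1.74 and 0.70 (limma adjusted p = 0.000118 and 0.00761), and TXN, thioredoxin, by 0.43 (adjusted p = 0.0168). In HPDE, MAFF, MAFK and AKR1B1, aldose reductase, rose by 0.54, 0.41 and 0.32, whereas FTH1 fell by 0.51 (limma adjusted p between 4.72e-06 and 0.00191). With vesicles in HPNE, UGDH, UDP-glucose dehydrogenase, fell by 0.52 with PANC-1 (limma adjusted p = 0.00722) and BLVRA, a biliverdin reductase, by 0.64 with PPCL-68 (adjusted p = 0.0021).

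**Figure D4:**
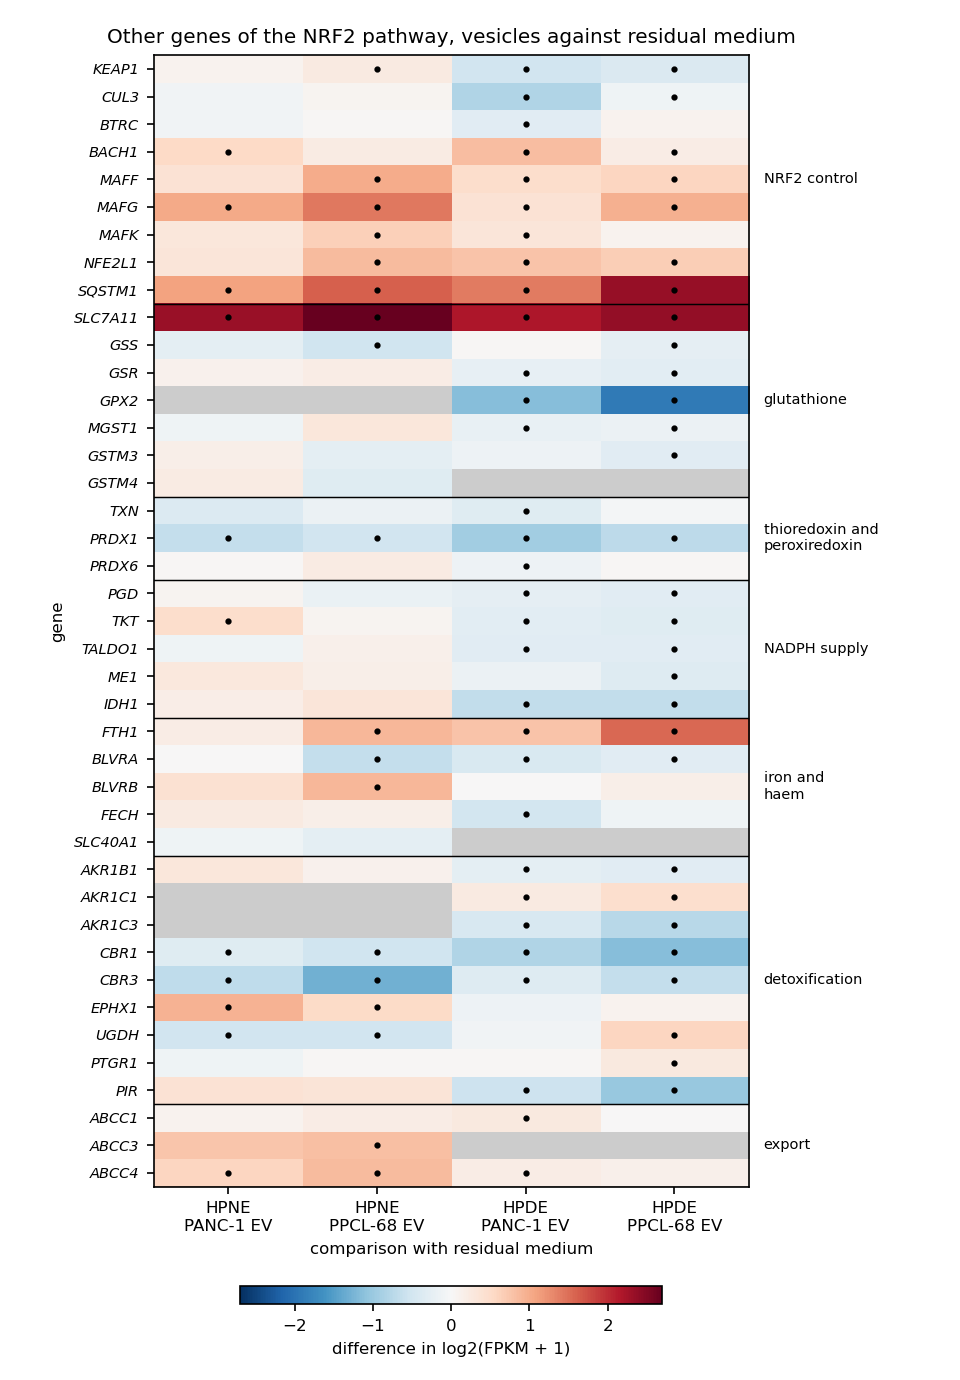
Difference in log2(FPKM + 1) against residual medium for other pathway genes tested in at least 1 line (rows, 1 gene left out, by role) in 4 comparisons (columns), red for higher and blue for lower with vesicles, dots for an adjusted p under 0.05 and grey for genes not tested in that line. SLC7A11 is red throughout (2.18 to 2.69), and the NADPH supply rows are mostly blue in HPDE.

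Across the 24 libraries, after the mean of each line was removed, the genes with the pattern closest to a member were mostly outside the pathway. Only 36 other pathway genes and the 8 members tested were among the genes ranked, so their small number alone makes this likely. Pearson's r was 0.967 for NFE2L2 with CSNK1G3, 0.939 for NFE2L2 with ATF1, 0.956 for FTL with IFT52, 0.945 for TXNRD1 with GHITM, 0.925 for GCLC with AUH, 0.911 for HMOX1 with FLOT1, 0.884 for NQO1 with FLOT1, 0.875 for OSGIN1 with CHN1 and 0.845 for GCLM with RAB27A, each the closest of 10482 genes except ATF1. NQO1 was the second closest gene to HMOX1 (0.868). Within HPDE, r over 12 libraries was 0.922 between TXNRD1 and OSGIN1 and 0.915 between HMOX1 and TXNRD1, but -0.681 between NFE2L2 and GCLM and 0.0253 between NFE2L2 and HMOX1. Within HPNE it was 0.854 between HMOX1 and NQO1, 0.858 between NQO1 and OSGIN1, and 0.358 between NFE2L2 and HMOX1. These points share treatment groups and library scaling, so the coefficients describe these libraries and carry no test.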

How the data were processed

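Total RNA of 24 samples was made into non-directional libraries, per the labels' protocols. For each library the authors deposited FPKM values beside the length, position and symbol of every gene, per the file headers. The submitters' processing notes name hg19, CASAVA, STAR, HTSeq and DESeq2. Their roles, versions, counting settings and annotation release are not given in the sources used here. FPKM depends on each library's total, so abundant genes shift the others (the top 10 genes held 14.5 to 18.3% of reads in HPNE and 4.33 to 5.21% in HPDE).

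Whole reads were recovered from FPKM times gene length (100% of values within 0.001 of a whole number in each library); amplified reads are not independent molecules, so depth covers counting error only. Groups were compared with limma 3.58.1 under R 4.3.3 (lmFit, eBayes with trend, two-sided) on log2(FPKM + 1), a scale that understates changes of weak genes. It used the 12 libraries of a line, 8 residual degrees of freedom, genes whose mean FPKM reached 1 and Benjamini-Hochberg adjustment over all genes tested, with a threshold of 0.05. Differences between lines came from one fit of 24 libraries. Groups and replicate numbers came from the titles. Same-numbered libraries deviated together in all 3 pairs (r = 0.565, 0.292 and 0.50 over all genes) for the HPNE vesicle groups only, of the 12 pairs of groups within a line, so that comparison was also fitted with pairs (added after seeing the data). The code was tested on simulated data.

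Alternatives were a pseudocount of 0.1, no filter, median-of-ratios scaling, a replicate block, voom on recovered reads (2924 and 4602 genes called in HPNE and 7833 and 8331 in HPDE with PANC-1 and PPCL-68 vesicles against residual medium), only the groups compared, each library left out, and the 4 HPNE libraries that stood apart left out. All members are described. For 1 other pathway gene, values are not reported here, and it enters the counts only. Other pathway genes were named if among the 3 largest rises or falls past the threshold without overlap, with SLC7A11, KEAP1, FTH1, SQSTM1 and BACH1 in any case. Members and lists were chosen with earlier results of these data known. PECAM1 was not found by symbol; RBX1 and SRXN1 were below the filter. Promoters are from RefSeq, with no entry used for HMOX1.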

Additional observations from a re-analysis of the deposited data

Results flagged for a closer look

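For 8 results, the effect of a treatment differed between the lines by a direct test (HPDE effect minus HPNE effect on log2(FPKM + 1), limma interaction, adjusted p under 0.05). Members called were 3 of 8 for PANC-1 vesicles, 1 of 8 for PPCL-68 vesicles and 4 of 8 for residual medium. Shares over all 10483 genes tested were 18.2%, 23% and 38.1%. The GCLM call was lost without HPNE residual medium replicate 1. NQO1 and OSGIN1 lost their PANC-1 calls with every gene kept, with only the groups compared and without some single libraries. For PANC-1 vesicles against residual medium, GCLM differed by -0.67, from a fall in HPDE to no call in HPNE; NQO1 differed by -0.60, from no call in HPDE to a rise in HPNE; and OSGIN1 differed by -0.59, with a smaller rise in HPDE. For PPCL-68 vesicles against residual medium, NFE2L2 differed by -0.62, with a smaller rise in HPDE. For residual medium against untreated cells, HMOX1 differed by 2.14, FTL by 1.09, OSGIN1 by 1.02 and NQO1 by 0.89, each with a fall in HPNE, and with a rise of HMOX1 and no call of the others in HPDE. No group of 4 or more samples was available to look for single outlying values.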

How the results depend on the processing

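Of 1768 refits of single members, 1599 kept direction and side of the threshold, 80 lost a call, 56 gained one and 33 changed sign. The sign changes concern differences that were not called, except NFE2L2 between untreated lines (-0.00375 with median-of-ratios scaling). That scaling also gave 0.0144 for GCLC (HPNE, PANC-1 against untreated), -0.0137 for NFE2L2 (HPNE, PANC-1 against PPCL-68; -0.00829 without the 4 libraries that stood apart) and 0.0223 for NQO1 (line difference with PPCL-68 vesicles; 0.0716 without the 4). For OSGIN1 the latter difference was -0.0582 with a pseudocount of 0.1 and -0.0683 with voom. Leaving out single libraries gave, in HPNE with PANC-1 vesicles against untreated, GCLC -0.14 to 0.017 and OSGIN1 -0.060 to 0.13; against PPCL-68, NFE2L2 -0.083 to 0.093 and GCLC -0.040 to 0.25; with PPCL-68 against untreated, HMOX1 -0.30 to 0.70. In HPDE against residual medium it gave NQO1 -0.011 to 0.026 (PANC-1) and GCLM -0.011 to 0.10 (PPCL-68), and for line differences GCLM -0.18 to 0.10 (residual medium), OSGIN1 -0.021 to 0.23 and NQO1 -0.15 to 0.16 (PPCL-68) and OSGIN1 -0.13 to 0.037 (untreated). Members called, in HPNE: PANC-1 against residual medium 5 (no filter 2, without the 4 libraries 8, single libraries 2 to 5); PPCL-68 8 (no filter 5); PANC-1 against untreated 1 (voom 2, without the 4 5, single 1 to 4); PPCL-68 against untreated 3 (without the 4 7); between vesicles 0 (without the 4 4, paired by replicate block in a fit of those groups alone 2, single 0 to 2). In HPDE, PANC-1 against untreated 7 (single 5 to 6) and residual medium against untreated 4 (no filter 2, single 2 to 4). Line differences: PANC-1 3 (no filter 1, without the 4 7, single 1 to 5), PPCL-68 1 (without the 4 5, single 1 to 3), residual medium 4 (without the 4 7). Leaving out those 4, or 1 of them, keeps the closest pair of each group concerned, which lowers the spread by construction. For other changes the cause was not tested. Over all genes, PANC-1 against residual medium in HPNE gave 2784 calls, 1348 without residual medium replicate 1, 4444 without replicate 3 and 6773 without the 4. Median-of-ratios scaling moved the all-gene median of HPNE residual medium against untreated from -0.05 to 0.06. Apart from the HPNE vesicle groups, same-numbered libraries did not deviate together in every pair (mean r of 2 groups from -0.432 to 0.206), so the numbers were not taken as pairs; with a replicate block 5 (HPNE) and 6 (HPDE) members were called for PANC-1 vesicles and 8 and 7 for PPCL-68 vesicles, as many as without but, for PANC-1 in HPNE, without FTL (adjusted p = 0.0507) and with HMOX1 (adjusted p = 0.0456), and the line difference with PANC-1 vesicles had 4 in place of 3 (NFE2L2, adjusted p = 0.0413). With 3 libraries a group, differences within the intervals given could not be detected.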
